A study of Mus musculus with 44 samples.

Results

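The genes for cytoplasmic ribosomal proteins were examined in single two-cell mouse embryos. Members were taken by name: every row whose symbol begins with Rpl or Rps and a number, together with *Rplp0*, *Rplp1*, *Rplp2* and *Rpsa*, leaving out pseudogene rows and the S6 kinases. The rule gave 86 of the 35269 rows. Of these, 46 encode subunits of the large (60S) part of the standard ribosome and 31 subunits of the small (40S) part, here called core members. The other 9 rows are paralogues or genes that encode no core subunit: *Rpl3l*, *Rpl7l1*, *Rpl10l*, *Rpl22l1*, *Rpl36al*, *Rpl39l*, *Rps27l*, *Rps27rt* and *Rps19bp1*.

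The study asked what maternal *Dppa2* and *Dppa4*, a pair of chromatin proteins, contribute to the start of embryonic transcription. It sequenced 44 embryos one by one, at the two-cell stage, from natural matings. The 14 WT embryos were Dppa2/4+/+ and came from control females mated to Dppa2/4+/+ males. The 15 HET1 embryos were Dppa2/4+/- and the 5 HET2 embryos were Dppa2/4+/- as well; the 10 HOM embryos were Dppa2/4-/-. The mothers of all 3 mutant groups carried floxed Dppa2/4 alleles that Zp3-Cre, active only in growing oocytes, had deleted, so these embryos started without maternal Dppa2/4. HET1 embryos were sired by Dppa2/4+/+ males, and HET2 and HOM embryos by Dppa2/4+/- males. The authors told HET2 from HOM embryos by their *Dppa2* and *Dppa4* transcripts. Each of the 3 crosses gave 2 litters, named here by their mating number, with 10 and 4 WT, 7 and 8 HET1, 4 and 1 HET2, and 3 and 7 HOM embryos. HET2 and HOM embryos are littermates. The remaining litters each hold embryos of 1 group, and in all comparisons with WT the litter cannot be told apart from the group.

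A ribosome is built from ribosomal RNA and one copy of most of these proteins, so a growing cell makes the subunits in nearly equal amounts. Their mRNAs are short and abundant in most cells, and most begin with a terminal oligopyrimidine tract, a cytosine followed by a run of C and T, through which mTOR signalling controls their translation. The mouse oocyte stores ribosomes and the mRNAs for their proteins. Much of this store is degraded around the two-cell stage, while the embryo's own genome takes over transcription. A level measured in a whole embryo holds both pools. Fewer molecules from the mother and fewer from the embryo cannot be told apart here.

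Pyrimidine tracts near the start of 8 members that the results below turn on are shown. Each is a stretch of 30 bases within 50 bases of an annotated start, from RefSeq (GRCm38.p6), written on the strand of the gene with the tract in capitals. In *Rpl36a* and *Rps2* the tract begins 28 and 41 bases after the annotated start, so these stretches do not contain it, and whether any of the tracts stands at the first base of the mRNA was not tested. The first 4 genes were lower in HET1 than in WT embryos, the next 2 were higher, and the last 2 differed between litters.
Rpl39 (chrX:37085195-37085224): tctagcgaCTTCTTCTaatcgcgttcttcc
Rpl5 (chr5:107900500-107900529): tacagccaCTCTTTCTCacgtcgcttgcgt
Rpl35a (chr16:33056469-33056498): ggggcttgCCTTCCTCTTTCCgccatcttg
Rpl36a (chrX:134585673-134585702): ggctctagCCTCTCTCTTTCCgagctgcta
Rpl15 (chr14:18270969-18270998): ggagaaagCCTTCTTCCTTTCCTCTggcgg
Rps2 (chr17:24720083-24720112): aaattgtcccttccgcggcgCCTCCCTCTT
Rps27 (chr3:90213629-90213658): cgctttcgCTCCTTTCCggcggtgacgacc
Rpl14 (chr9:120571501-120571530): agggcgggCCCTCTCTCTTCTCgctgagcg

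A tract of this kind, searched on the strand of the gene as a C followed by at least 7 further C or T within 50 bases of an annotated start, was present in 48 of the 57 core members that have a promoter entry (84.2%). It was present in 31.5% of the 11462 tested genes with an entry. The ETS-type motif CCGGAAG, searched on both strands in the promoter window of 250 bases before to 50 after the start, was found in 24 of the 57 (42.1%, against 18.5% of tested genes). The YY1-type motif AAGATGG was found in 9 (15.8%, against 8.2%), and TATAAA in 6 (10.5%, against 9.5%). A match says only that these letters stand in the window.

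The members are spread over 19 chromosomes. They have a median principal transcript of 705 bases, against 2727 for the tested protein-coding genes, and a GC content of 51.3% against 49.7%. Many have processed copies elsewhere. The authors kept only reads with a mapping quality of at least 20, so reads from stretches with a perfect copy are lost. By the annotated transcripts, 81 members share at least one 75-base stretch, the read length, with a transcript of another gene, 27 share 50% or more of their stretches, and the median is 30.9%. Levels of such members can be too low for this reason, which matters most where members are compared with each other.

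Reads per embryo ranged from 247667 to 3163026, with a median of 1770009 in WT, 528166 in HET1, 1108889 in HET2 and 803369 in HOM embryos. The deposited unit is log2 RPM, the log2 of the reads on a gene scaled to the same library total in each embryo, and a gene without a read holds the value of 0.9 read. That floor is higher in shallower embryos and ranged from -1.81 to 1.86. It touches few members: 45 of their 3784 values (1.19%) had no read, against 30.5% of the values of all tested genes. *Dppa2* was between 7.67 and 9.4 log2 RPM in WT, 5.33 and 8.43 in HET1 and 4.77 and 8.88 in HET2 embryos, and 7 of 10 HOM embryos had no read. Its median was 7.18 in HET1 litter 1 and 5.6 in litter 2, and that of *Dppa4* was 6.2 and 4.71. The HET2 value of 8.88 was that of the only embryo from litter 2, and the others had 4.77 to 6.66. Of 8 two-cell markers all had reads in every group. The stroma and blood markers summed to between 36.6 and 487 RPM in the 4 embryos of WT litter 2, with *Dcn*, *Col3a1* and *Col1a1* highest and *Ptprc* and *Hba-a1* without reads, and to at most 9.13 RPM in every other embryo. Embryos WT j and WT k had 9403 and 9169 genes detected, the lowest among WT embryos. Embryo HET1 l had as few (9358), but from 188044 reads in listed genes, against 973882 in WT j and 777663 in WT k. The part of embryos WT j and WT k and of the stroma markers in the results was not tested beyond the values given without them.

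Every embryo expressed nearly the whole set. All 86 members passed the filter on low values (a mean of at least 0 log2 RPM), between 80 and 86 had a read in each embryo, and 18 embryos had reads on all of them. Per length of transcript, the highest core members over all 44 embryos were *Rpl41*, the smallest protein of the large subunit, at 9.63 ± 0.99 log2 RPM per kb (mean ± SD, n = 44), *Rplp1* at 8.64 ± 0.91 and *Rplp0* at 8.63 ± 0.92. *Rplp0* and *Rplp1* form the stalk that recruits elongation factors. *Rplp1* and *Rplp0* differ by less than their spread between embryos.

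The lowest core members per length were *Rpl3*, which reaches towards the peptidyl transferase centre, at 3.18 ± 1.6, *Rps20* at 3.64 ± 1.14 and *Rpl17* at 4.06 ± 1.22 log2 RPM per kb. *Rps20* has only a 3706-base principal model in the annotation, which sets its value low. In WT embryos alone *Rpl3* was again the lowest (3.5), followed by *Rpl7a* (4.07), *Rpl23a* (4.15), *Rpl17* (4.25), *Rpl12* (4.3) and *Rps20* (4.34). The whole core set had a median of 6.36. The 25 core members with at least 50% of their stretches shared had a median of 6.23, and the other 52 a median of 6.6. The reads per length of core subunits thus ran from 3.18 to 9.63 log2 RPM per kb, on a scale that holds both mRNA level and lost reads.

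Summed over the 86 members, the share of an embryo's reads in listed genes ran from 0.354% (95% Wilson interval 0.343 to 0.365) in embryo HET1 h to 2.34% (2.3 to 2.38) in embryo HOM h. The intervals treat each read as an independent count. PCR copies of a molecule were counted as separate reads, so the intervals understate the counting error of molecules. The lowest, median and highest shares were 0.547%, 1.07% and 1.59% in WT and 0.354%, 1.16% and 1.84% in HET1. The 5 HET2 embryos stood at 0.442%, 0.514%, 0.896%, 0.998% and 0.89%. The 10 HOM embryos had 0.554%, 1.21% and 2.34%. All groups overlap, and the HET2 embryos lie in the lower part of the range.

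**Figure D1:**
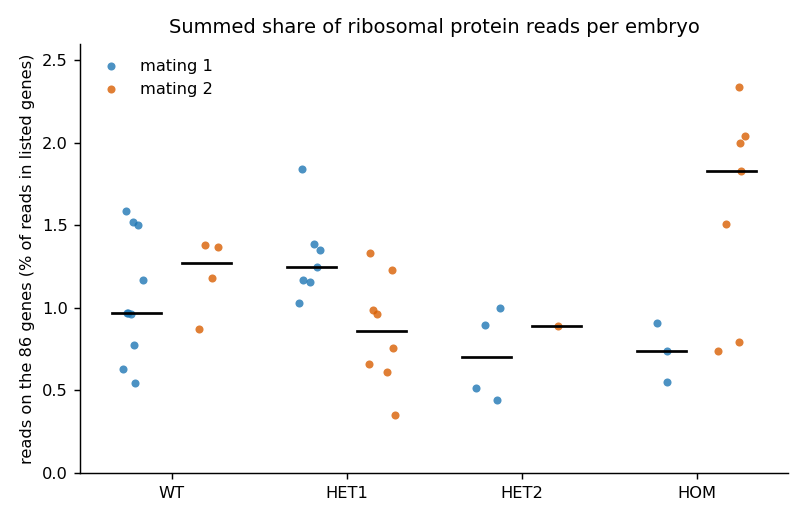
Share of reads on the 86 ribosomal protein genes in each embryo, in percent of the reads in listed genes, by group and mating number; each point is an embryo and each bar the median of a litter. The 7 embryos of HOM litter 2 reach from 0.742% to 2.34% and the 8 of HET1 litter 2 from 0.354% to 1.33%.

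The litters of a group differed as much as the groups. The median share was 1.25% in HET1 litter 1 and 0.862% in HET1 litter 2, and it was 0.742% in HOM litter 1 and 1.83% in HOM litter 2. In HOM embryos litter 2 was thus 2.47 times litter 1, whereas in HET1 embryos litter 2 was 0.69 times litter 1. WT litters stood at 0.968% and 1.27%. The HET2 embryos of litter 1, littermates of the low HOM embryos, had a median of 0.705%. The HOM to WT ratio of medians was 1.13, the HET1 to WT ratio 1.08 (0.996 over members that share few stretches and 1.0 outside mitochondrially encoded genes) and the HET2 to WT ratio 0.832.

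In HOM litter 2 the 7 embryos did not lie together. Embryos e and f had shares of 0.742% and 0.793%, and the other 5 had 1.51% to 2.34%. Mitochondrially encoded genes took 21.6% and 25.2% of the reads in embryos e and f, and 8.44% to 12.1% in the other 5. When mitochondrially encoded genes were left out of the total, the ratio of the HOM litters was 2.55. Over the 17 members that share less than 10% of their stretches, it was 2.13.

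Markers of the maternal store moved with the litters. The summed level of 7 oocyte genes (*Omt2b*, *Dppa3* and *Bmp15* highest) was 8820 to 17600 RPM in HET1 litter 2, 7960 to 11000 in HET2 litter 1 and 8500 to 9680 in HOM litter 1. It was 2590 to 7460 in HET1 litter 1 and 3230 to 5640 in HOM litter 2. Two-cell genes tended the same way but overlapped, with 268 to 1050 RPM in HET1 litter 2 and 226 to 462 in HOM litter 1 against 82 to 387 in HET1 litter 1 and 79.2 to 250 in HOM litter 2. Within HET1 and within HOM the litter with more maternal transcripts was thus the one with the lower ribosomal protein share. This did not hold in WT, where litter 2 had the higher median of both (6250 against 3960 RPM for the oocyte genes). Of 10 cumulus and granulosa markers *Fshr* had no read, and most reads were on *Amhr2*. Their sum was 10.2 to 116 RPM in HOM litter 2 and 11.9 to 24.2 in HOM litter 1, and 31.6 to 73.2 in HET1 litter 1 and 6.35 to 58.7 in HET1 litter 2. In WT it was 70.8 to 121 RPM in litter 2, with *Lum* highest, and 11.7 to 79.1 in litter 1, so in each of these groups the highest sum was in the litter with the higher median share. The part of these markers in the result was not tested.

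Across the 84 members with a mean of at least 3 log2 RPM, litter accounted for a median of 32.3% of the variance between embryos and group for 13.9%. The same values over all 6919 genes at that level were 27.4% and 11.8%. The litter and group values come from separate splits of the embryos, into 6 litters and 4 groups. The litter value takes in the differences between crosses and has more classes, so the values do not weigh litter against group. Within litters, members with a mean of 6 to 7 log2 RPM had a median SD of 0.84, against 0.72 for all 1151 genes at that level, and 19 of 27 members lay above it. At 7 to 8 log2 RPM the SD was 0.65 against 0.57 (7 of 11 above) and at 8 and over 0.81 against 0.48 (2 of 3). Members at lower levels were not more variable: at 5 to 6 log2 RPM the SD was 0.88 against 0.89 (13 of 27 above), at 4 to 5 it was 1.1 against 1.15 (4 of 10), and at 3 to 4 it was 1.15 against 1.37 (0 of 6). The steadiest member was *Rps27l*, with a within-litter SD of 0.37, followed by *Rps26* with 0.45 and *Rpl23* with 0.47. The most variable were *Rpl3l* with 1.45 and *Rpl22l1* with 1.32.

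The comparison of HET1 with WT asked how these mRNAs differed in embryos that lacked maternal Dppa2/4 and carried only the paternal copy. Of the 86 members 4 were higher and 13 were lower in HET1 embryos by limma over all 16412 tested genes (Benjamini-Hochberg adjusted p under 0.05). *Rps2*, *Rplp0*, *Rpl15* and *Rpl41* were higher. *Rpl22l1*, *Rpl39*, *Rpl7*, *Rpl35a*, *Rpl5*, *Rpl36a*, *Rpl39l*, *Rpl30*, *Rpl7l1*, *Rps20*, *Rps27a*, *Rps24* and *Rpl23* were lower. Of all tested genes 21.4% were called higher and 3.35% lower, so the members held fewer higher and more lower calls than the background. Of the 6919 genes with a mean of at least 3, where nearly all members lie, 693 were higher and 531 lower. The members' median difference was 0.02, against 0.61 for all tested genes and 0.12 for genes with a mean of at least 3. When the embryos were re-centred on their median gene, 0 members were higher, 14 were lower and their median was -0.45. With litter as a random effect, or without HET1 litter 2, no member was called.

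*Rpl39*, a small protein at the exit of the nascent chain tunnel, had the largest fall among core members. Its lowest, median and highest values were 6.52, 7.77 and 10.16 log2 RPM in WT and 3.68, 5.76 and 7.93 in HET1. The difference was -2.11 ± 0.40 (SE, adjusted p = 0.000925 by limma), and all 15 HET1 embryos lay below the WT mean. The highest WT values, 9.69 and 10.16, were those of embryos WT j and WT k. Both HET1 litters were low, at 6.4 ± 1.13 and 5.33 ± 1.03 log2 RPM (SD, n = 7 and 8), against 7.71 ± 0.89 and 8.54 ± 1.13 in the WT litters (n = 10 and 4).

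*Rpl5* carries 5S ribosomal RNA into the large subunit together with *Rpl11*, and the pair also binds Mdm2. It had 7.49, 8.07 and 10.16 log2 RPM in WT and 5.26, 6.86 and 8.56 in HET1. The difference was -1.63 ± 0.31 (adjusted p = 0.000925 by limma), with 14 of 15 HET1 embryos below the WT mean. The HET1 litters differed too, at 7.42 ± 0.65 and 6.06 ± 0.68 (-1.36 ± 0.33, adjusted p = 0.00261), and without litter 2 the difference from WT was -0.9. Its partner *Rpl11* was at 3.61, 5.85 and 7.33 in WT and 2.03, 6.14 and 7.38 in HET1, with a difference of 0.02 ± 0.41 (adjusted p = 0.977). *Rpl5* shares 84.1% of its stretches with other genes and lies opposite exons of *Fam69a*, and the counting took no account of strand.

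*Rpl7*, *Rpl35a* and *Rpl22l1* fell mainly through litter 2. *Rpl7* was at 5.27, 6.75 and 9.49 log2 RPM in WT and 1.58, 4.74 and 7.28 in HET1, a difference of -1.98 ± 0.50 (adjusted p = 0.00497 by limma). HET1 litter 1 had 6.77 ± 0.47 and litter 2 had 3.28 ± 1.15, and without litter 2 the difference was -0.12. For *Rpl35a* it went from -1.78 to -0.25, and for *Rpl22l1*, a paralogue of *Rpl22*, from -2.17 to -0.57. *Rpl7l1*, a relative of *Rpl7*, went from -1.11 to 0.27.

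*Rplp0* and *Rps2* were higher. *Rplp0* had 6.69, 8.25 and 9.8 log2 RPM in WT and 8.42, 9.72 and 10.7 in HET1, a difference of 1.08 ± 0.27 (adjusted p = 0.00456 by limma). *Rps2*, a small subunit protein near the mRNA entrance, had 3.37, 5.4 and 6.95 in WT and 5.25, 6.52 and 7.79 in HET1, a difference of 1.34 ± 0.33 (adjusted p = 0.0046). Their HET1 litters were alike, with means of 9.66 and 9.42 for *Rplp0*. The lowest WT values of both genes were those of embryos WT j and WT k, at 6.69 and 7.04 for *Rplp0* and 3.72 and 3.37 for *Rps2*. For each of the 17 members called, the values of the WT and HET1 embryos overlapped.

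**Figure D2:**
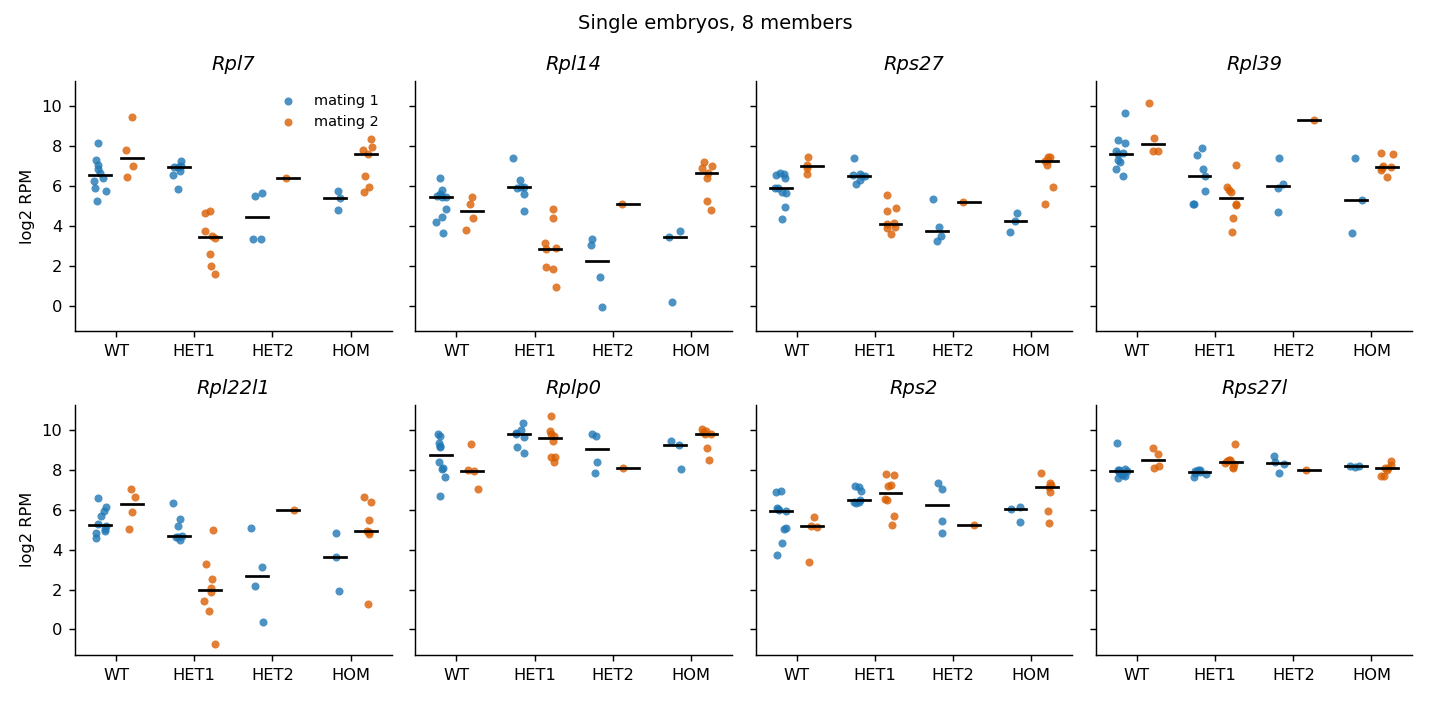
Log2 RPM of 8 members in each embryo, by group and mating number, with a bar at the median of each litter. Rpl7, Rpl14, Rps27 and Rpl22l1 are low in HET1 litter 2, whereas Rps27l stays between 7.6 and 9.37 log2 RPM in all 4 groups.

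These calls depended on litter and depth. Without HET1 litter 2, 0 members were higher and 0 lower and their median was 0.59; without HET1 litter 1, 2 were higher and 23 lower with a median of -0.44. Without WT litter 1 the counts were 2 and 2, and without WT litter 2, which held the stroma markers, 2 and 7. With the log2 of total reads as a covariate, or with litter as a random effect, limma called 0 members, and 29 and 17 had an unadjusted p under 0.05, against 22 in the model without these terms (26 without HET1 litter 2). In the model without these terms 6531 of all 16412 tested genes had such a p. The members' median was -0.61 with the depth covariate and 0.03 with the random effect. Of the 11 called members followed through all 15 alternatives, all but *Rpl7l1* kept their direction in each, but none kept its call in each. *Rpl39* and *Rpl39l* were called in 12 of the 15 (highest adjusted p 0.12 for both), *Rpl5* in 11 (0.15), *Rps2* in 11 (0.4) and *Rplp0* in 11 (0.46). *Rpl7*, *Rpl30* and *Rpl22l1* were also called in 11, *Rpl35a* in 9 (0.78), and *Rpl36a* (0.3) and *Rpl7l1* (0.62) in 6.

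The comparison of HET2 with WT gave 0 members higher and 0 lower by limma, where 0.00609% of tested genes were called in each direction. Their median difference was -0.68, 79 of 86 were below 0 and 26 had an unadjusted p under 0.05. Of all 16412 tested genes 1565 had such a p. With voom on the recovered reads no member was called and 17 had such a p. Over all tested genes the median was 0.07.

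The largest differences were those of *Rpl14*, *Rpl35a*, *Rpl22l1* and *Rpl7*. *Rpl14* had the values -0.09, 1.44, 3.33, 3.03 and 5.12 log2 RPM in the HET2 embryos, against 3.67, 5.27 and 6.42 in WT, a difference of -2.45 ± 0.81 (adjusted p = 0.306 by limma). *Rps27* had 3.23, 3.94, 3.52, 5.35 and 5.21, against 4.37, 6.48 and 7.44 in WT (-1.95 ± 0.57, adjusted p = 0.27). All 5 HET2 embryos lay below the WT mean of *Rps27*, and both genes overlap with WT. Without embryo HET2 e, the only one of litter 2, 2 members were lower.

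*Rpl5* in the HET2 embryos showed how far that embryo differed. The 4 embryos of litter 1 had 6.29, 6.63, 6.33 and 5.72 log2 RPM, and embryo e had 8.97. The same embryo had 9.33 for *Rpl39*, where its 4 groupmates from litter 1 had 4.69 to 7.41. Its summed oocyte markers were 2720 RPM, against 7960 to 11000 in the others, and mitochondrially encoded genes took 25.2% of its reads, against 7.14% to 16.8%.

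The comparison of HOM with WT gave no call either. By limma 0 members were higher and 0 lower, where 0.0609% and 0.0122% of tested genes were called, 16 members had an unadjusted p under 0.05, and with voom 12 did and no member was called. Of all 16412 tested genes 3469 had an unadjusted p under 0.05 in the fit without voom. The median of the members was 0.39 and that of all tested genes 0.49, so the members lay near the background. Re-centred on the median gene of each embryo, the members' median was -0.32. It was 0.85 without HOM litter 1 and -0.52 without HOM litter 2.

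*Rpl39* was again the lowest core member relative to WT. It had 3.64, 6.93 and 7.64 log2 RPM in HOM, and all 10 HOM embryos lay below the WT mean (-1.37 ± 0.44, adjusted p = 0.1 by limma). *Rpl5* was at 5.76, 7.82 and 8.17, a difference of -0.87 ± 0.34 (adjusted p = 0.147), also with all 10 below the WT mean. *Rpl15* differed most in the other direction, with 4.01, 5.18 and 6.5 in WT and 5.48, 6.52 and 7.73 in HOM (1.2 ± 0.32, adjusted p = 0.0728), and all 10 HOM embryos lay above its WT mean. *Rplp0* was at 8.05, 9.63 and 10.03, a difference of 0.94 ± 0.30 (adjusted p = 0.0958). These share their WT embryos with the comparisons above, so the like direction is no separate evidence.

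HOM and HET2 embryos are littermates that differ in the paternal allele. This comparison, made within litters, gave 0 members higher and 0 lower by limma, with 0.0% and 0.0122% of tested genes called. Of all 16412 tested genes 912 had an unadjusted p under 0.05. Of the members 5 had such a p, and 2 with voom. Their median was 0.46, against 0.34 for all tested genes, 74 of 86 were above 0, and it was 0.15 without embryo HET2 e and -0.02 after re-centring. *Rpl39* was lower by 1.15 ± 0.49 (-1.15, adjusted p = 0.82) and *Rpl11* higher by 1.3 ± 0.56 (adjusted p = 0.82).

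**Figure D3:**
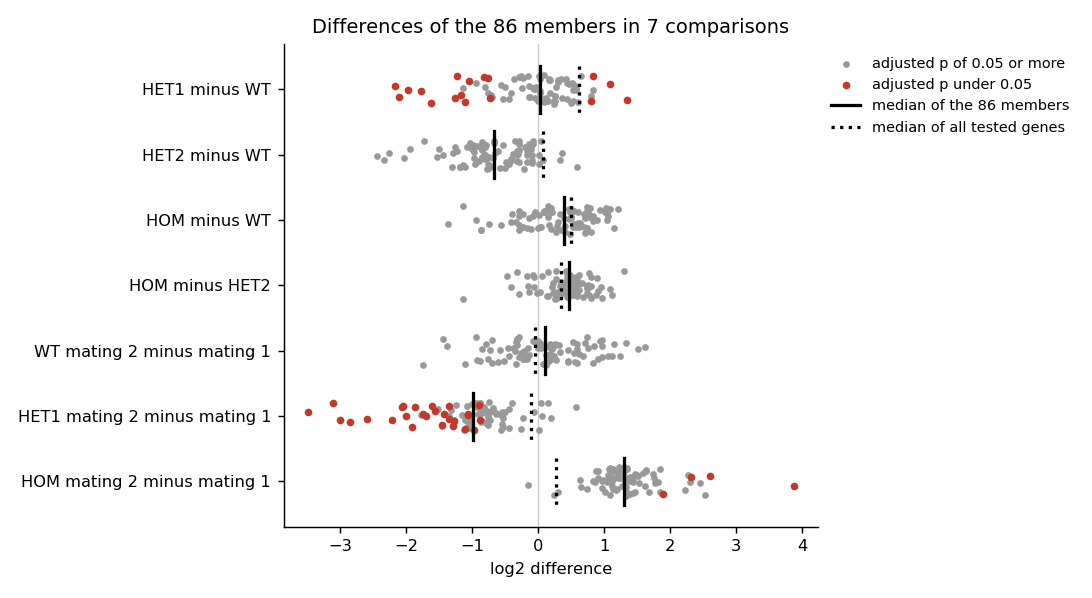
Log2 differences of the 86 members in the 7 comparisons, with members below an adjusted p of 0.05 in red, a solid bar at the members' median and a dotted bar at the median of all tested genes. The members' median is -0.99 between the HET1 litters and 1.29 between the HOM litters, and 0.02 between HET1 and WT.

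Embryos of the same group were then compared between litters. In HET1, 0 members were higher and 27 were lower in litter 2 than in litter 1 by limma, where 3.64% of tested genes were called higher and 10.1% lower. The members' median was -0.99, against -0.12 for all tested genes and -0.39 for genes with a mean of at least 3, of which 453 of 6919 were higher and 1393 lower. Of the 86, 80 were below 0. After re-centring, 1 was higher and 6 were lower. Large and small subunits moved alike, with medians of -1.0 and -1.01 and 15 of 46 and 9 of 31 called. Each litter is a single one, so this compares those litters.

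*Rpl7* differed most. Its lowest, median and highest values were 5.84, 6.96 and 7.28 log2 RPM in litter 1 and 1.58, 3.46 and 4.74 in litter 2, without overlap (-3.49 ± 0.47, adjusted p = 4.61e-07 by limma). *Rpl14* was at 4.76, 5.94 and 7.4 in litter 1 and 0.93, 2.87 and 4.85 in litter 2, where 2 embryos had no read (-3.12 ± 0.57, adjusted p = 7.01e-05). *Rps27*, a zinc finger protein of the small subunit, was at 6.12, 6.51 and 7.4 in litter 1 and 3.6, 4.11 and 5.54 in litter 2 (-2.22 ± 0.40, adjusted p = 6.38e-05). For *Rpl7* and *Rps27* every embryo of litter 2 was below every embryo of litter 1.

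The other core members named by size were *Rpl35a* (-2.86), *Rpl3* (-2.06), *Rps3* (-2.01), *Rpl17* (-1.92) and *Rpl38* (-1.87). *Rps3* lines the mRNA entry channel, and *Rpl38* is known for its part in the translation of Hox mRNAs. *Rps3* had 6.63, 7.34 and 8.19 log2 RPM in litter 1 and 3.25, 5.4 and 6.81 in litter 2 (adjusted p = 0.000785 by limma). *Rpl3* was at 3.9 ± 1.3 and 1.84 ± 0.86 (SD, n = 7 and 8), with 1 and 3 embryos without a read. Core members at the other end did not differ detectably, such as *Rps2* by 0.05 ± 0.44, *Rpl15* by 0.01 ± 0.39 and *Rplp0* by -0.24 ± 0.35. The paralogue *Rps27l*, described below, was higher in litter 2, without overlap, but was not called.

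In HOM the order of the litters was the opposite. Litter 2 had 4 members higher and 0 lower than litter 1 by limma, where 0.366% of tested genes were called higher and 0.25% lower. The median of the members was 1.29, against 0.27 for all tested genes and 0.07 for genes with a mean of at least 3, and 85 of 86 were above 0. All 77 core members were above 0. Of the members 53 had an unadjusted p under 0.05, and of all 16412 tested genes 2390 did.

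The 4 members were *Rpl14*, *Rps27*, *Rps28* and *Rps23*, the last a protein of the decoding centre. *Rpl14* had 0.2, 3.47 and 3.73 log2 RPM in the 3 embryos of litter 1, the first without a read, and 4.82, 6.66 and 7.21 in the 7 of litter 2 (3.87 ± 0.75, adjusted p = 0.00649 by limma). *Rps27* had 3.71, 4.26 and 4.64 in litter 1 and 5.09, 7.25 and 7.47 in litter 2 (2.6 ± 0.53, adjusted p = 0.0104). *Rps28* differed by 2.31 ± 0.57 (adjusted p = 0.0355) and *Rps23* by 1.89 ± 0.49 (adjusted p = 0.0475). For all 4 the litters did not overlap. Over 8 alternatives *Rpl14* was called in 8, *Rps27* in 7, *Rps28* in 5 (highest adjusted p 0.15) and *Rps23* in 4 (0.17), and the members called numbered 1 with voom and 2 after re-centring.

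WT litters gave 0 members higher and 0 lower by limma, where 2.04% and 0.859% of tested genes were called. The members' median was 0.1, 12 had an unadjusted p under 0.05, and with voom 6 were higher. Without voom 2696 of all 16412 tested genes had such a p. Of these litters, the second held the stroma and blood markers.

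The HET1 and HOM litters share no embryo. Of the 86 members 80 were lower in HET1 litter 2 and higher in HOM litter 2, and *Rpl14* and *Rps27* were called in both, 2 of the 27 called in HET1 and of the 4 called in HOM. Of the 6919 genes with a mean of at least 3, 3261 (47.1%) were lower in HET1 litter 2 and higher in HOM litter 2, and 39 were called in both, of 1393 called lower in HET1 and 43 called higher in HOM. Over the 84 members with a mean of at least 3 the differences had a Pearson correlation of -0.61, and over all 6919 such genes -0.75. These points share their libraries within each axis, so this is a description. *Rps27l*, *Rpl10l* and *Rps15a*, chosen after their values were seen, had the lowest differences between the HOM litters: -0.16, 0.24 and 0.29, against 0.57, 0.19 and 0.04 between the HET1 litters.

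**Figure D4:**
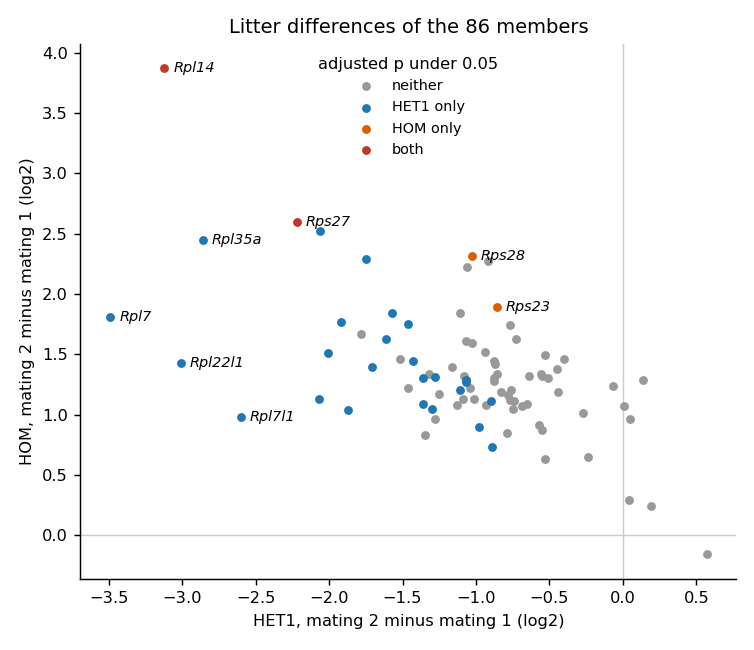
Log2 difference between the litters of HET1 (horizontal) and of HOM (vertical) for each of the 86 members, coloured by which difference had an adjusted p under 0.05. Rpl14 lies at -3.12 and 3.87 and Rps27 at -2.22 and 2.6, and 80 members lie to the upper left of the origin.

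Paralogues of core members were a large part of the output of some pairs. *Rps27l*, a paralogue of *Rps27* known as a p53 target, was above *Rps27* per length in 42 of 44 embryos, with a median difference of 1.69 log2 RPM per kb. It stood at 8.17 ± 0.54 log2 RPM in WT, 8.18 ± 0.41 in HET1, 8.24 ± 0.33 in HET2 and 8.08 ± 0.23 in HOM (SD, n = 14, 15, 5 and 10). In HET1 its litters did not overlap, with 7.64 to 8.02 in litter 1 and 8.1 to 9.31 in litter 2 (0.57 ± 0.23, adjusted p = 0.0884 by limma). The difference between *Rps27l* and *Rps27* had a median of 1.33 in WT, 2.67 in HET1, 3.81 in HET2 and 1.24 in HOM embryos. These medians pool unlike litters. The difference was 0.07 to 1.13 in HET1 litter 1 and 2.67 to 4.01 in litter 2. In HOM it was 3.02 to 3.97 in litter 1 and -0.08 to 2.08 in litter 2, and in HET2 litter 1 it was 2.51 to 4.64. *Rps27* shares 42.4% of its stretches with other genes and *Rps27l* 8.1%, so the size of the difference holds lost reads too.

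*Rpl10*, *Rpl36a* and *Rpl39* are X-linked and each has an autosomal paralogue. *Rpl36al* was above *Rpl36a* in 41 of 44 embryos (median difference 1.23), but *Rpl36a* shares 84.6% of its stretches. *Rpl10l*, which replaces *Rpl10* in male meiosis, was above it in 31 of 44 (median 0.57), where *Rpl10* shares 71.1% of its stretches and *Rpl10l* 0.3%. By group it was above in 11 of 14 WT (median 0.78), 10 of 15 HET1 (0.48), 5 of 5 HET2 (1.04) and 5 of 10 HOM embryos (-0.12). *Rpl39l* and *Rpl39* share few, 0.0% and 7.6%. *Rpl39l*, best known from testis, was above *Rpl39* in 6 of 14 WT and 12 of 15 HET1 embryos. Both fell in HET1, *Rpl39l* by 1.23 on the log2 scale (-1.23 ± 0.28, adjusted p = 0.00258 by limma).

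**Figure D5:**
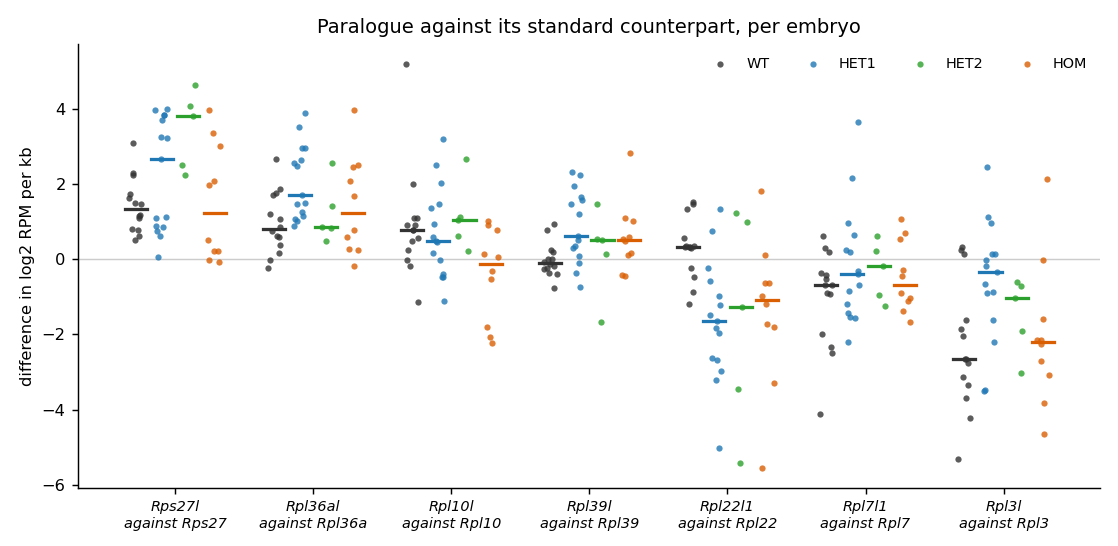
Difference in log2 RPM per kb between a paralogue and its standard counterpart in each embryo, by group, with a bar at the group median. Rps27l lies above Rps27 in 42 of 44 embryos, and Rpl3l below Rpl3 in all but 9.

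*Rpl22l1* was close to *Rpl22* in WT, with a median difference of 0.33, and below it in 13 of 15 HET1 embryos, with a median of -1.63. *Rpl22* itself was at 5.12 ± 0.73 log2 RPM in WT and 4.86 ± 1.2 in HET1 (adjusted p = 0.618 by limma). *Rpl3l*, a muscle form of *Rpl3*, was low, at 1.63 ± 1.8 log2 RPM in WT, and 5 of the 44 embryos had no read. *Rps27rt*, a retrotransposed copy of *Rps27* that shares 90.3% of its stretches, had no read in 22 of 44 embryos. *Rps19bp1*, which binds *Rps19* and is no subunit, was lower in HET1 litter 2 than in litter 1 (-2.07 ± 0.61, adjusted p = 0.0146).

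Other members of the panel are given by group. *Rps19*, mutated in Diamond-Blackfan anaemia, was at 6.01 ± 1.01 log2 RPM in WT, 6.3 ± 0.75 in HET1, 5.71 ± 0.63 in HET2 and 6.75 ± 1.19 in HOM embryos. *Rps6*, the substrate of S6 kinase, was at 5.88 ± 0.74, 5.8 ± 1.14, 5.71 ± 0.68 and 6.36 ± 0.95 in the same order. *Rpsa*, also known as the laminin receptor, was at 6.7 ± 0.98, 7.15 ± 1.17, 6.6 ± 0.92 and 7.33 ± 1.15. None of the 3 was called in a comparison of groups, and *Rpsa* was called lower in HET1 litter 2 (-1.28 ± 0.45, adjusted p = 0.0477 by limma).

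*Rps27a* is made as a fusion to ubiquitin. It had 5.78, 7.17 and 8.44 log2 RPM in WT and 4.44, 6.44 and 7.81 in HET1, a difference of -0.83 ± 0.30 (adjusted p = 0.0361 by limma), with 14 of 15 HET1 embryos below the WT mean. It also differed between the HET1 litters, at 6.9 ± 0.51 and 5.79 ± 0.65 (-1.11 ± 0.35, adjusted p = 0.0247). *Rps3* was at 6.56 ± 0.75 in WT and 6.32 ± 1.42 in HET1 (adjusted p = 0.655). *Rps12* was at 4.36 ± 0.76 in WT, 4.88 ± 1.05 in HET1, 4.16 ± 0.97 in HET2 and 4.76 ± 1.15 in HOM.

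Other genes of the pathway were taken from lists. The name rule leaves out *Fau*, a fusion of a small subunit protein to a ubiquitin-like protein, and *Rack1*, a signalling scaffold on the small subunit. *Fau* was at 0.7 ± 0.34 in HET1 against WT (adjusted p = 0.12 by limma) and *Rack1* at -0.17 ± 0.43 (adjusted p = 0.79). *Rack1* was lower in HET1 litter 2 than in litter 1 (-1.55 ± 0.53, adjusted p = 0.038 by limma). Of 15 other mRNAs with oligopyrimidine tracts, 0 were higher and 4 lower in HET1 than in WT, with a median of -0.17, where 21.4% of all tested genes were higher and 3.35% lower. Of the 6919 genes with a mean of at least 3, 693 were higher and 531 lower, with a median of 0.12. Among the 4 most abundant of the 15 mRNAs, *Npm1* (-0.77), *Nap1l1* (-0.88) and *Tpt1* (-0.69) were lower, and *Hnrnpa1* was at 0.23 ± 0.19 (adjusted p = 0.35). *Tpt1* also differed between the WT litters, by 1.23 ± 0.31 (adjusted p = 0.015), and was higher in the litter with the stroma markers.

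Of 24 factors of ribosome assembly, 0 were higher and 6 lower in HET1 than in WT, with a median of -0.23, beside the same shares of all tested genes. Of the 6919 genes with a mean of at least 3, 693 were higher and 531 lower (median 0.12). *Dkc1*, a pseudouridine synthase of ribosomal RNA, was lower (-1.12 ± 0.25, adjusted p = 0.0025 by limma), as were *Nop58* (-0.6) and *Ncl* (-0.52). *Rrn3*, which recruits RNA polymerase I, was at -0.46 ± 0.21 (adjusted p = 0.093). In HET1 litter 2 all 24 factors were below litter 1 and 10 were called (10.1% of all tested genes were lower, and 1393 of the 6919 with a mean of at least 3). In HOM litter 2 all 24 were above litter 1 and 0 were called. HOM against WT gave 0 calls in these lists, with 6 of the 24 factors at an unadjusted p under 0.05. Of all 16412 tested genes 3469 had such a p, a share near that of the factors.

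Mitochondrial ribosomal proteins, which build the separate ribosome of the mitochondrion, were compared in the same way. Of 77 tested, 2 were higher and 2 lower in HET1 than in WT, with a median of -0.13, where 21.4% of all tested genes were higher and 3.35% lower. Between the HET1 litters 27 were lower and 0 higher (median -1.31), where 10.1% of all tested genes were lower, among them *Mrps7* (-1.8 ± 0.41, adjusted p = 0.0013 by limma), and between the HOM litters 1 was higher (median 1.2), where 0.366% of all tested genes were. Of the 6919 genes with a mean of at least 3, 693 were higher and 531 lower in HET1 than in WT. Between the HET1 litters 1393 of them were lower, and between the HOM litters 43 were higher. The summed share of the mitochondrial set was 0.308% in HET1 litter 1 and 0.168% in litter 2, and 0.201% and 0.472% in the HOM litters. Between the WT litters 0 genes of either set were called. The median was -0.45 for the mitochondrial set (58 of 77 below 0) and 0.1 for the cytoplasmic members (48 of 86 above 0). It was -0.05 for all tested genes and -0.16 for genes with a mean of at least 3. The sets were not tested against each other.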

How the data were processed

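RNA was measured in 44 single two-cell embryos by Smart-seq2, which reads polyadenylated RNA after PCR. The authors trimmed reads with Trim Galore 0.6.5 and cutadapt 2.3, mapped them with HISAT2 2.1.0 to GRCm38, kept a MAPQ of at least 20 and quantified genes in SeqMonk, unstranded. The unit of the deposited table is log2 RPM. Groups and litters were taken from the labels, and embryos of a group are separate animals. Reads behind each value were recovered from the value of genes without a read, 0.9 read (99.9997% of values whole within 0.05 read). Depth was 247667 to 3163026 reads per embryo. Reads in listed genes were 67.9% to 84.8% of the total.

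The 16412 genes whose mean log2 RPM was 0 or more were fitted with limma 3.58.1 (lmFit, eBayes with trend) in R 4.3.3, all groups in one model, two-sided, Benjamini-Hochberg adjusted over all of them at 0.05. HOM and HET2 were compared with litter as a term. The fit was tested on simulated counts that held no litter effect and in which only HOM embryos were changed. That test does not cover differences between litters. Levels per length used the shortest principal transcript (GENCODE). Members and lists were chosen with earlier results of these data known. Named were a panel of 12 members, the paralogues, the 3 highest and 3 lowest core members per length, and up to 8 called core members per comparison with the largest difference; the others were named after their values were seen. Alternatives covered the filter, floor, scaling, depth, weights, test, litters and embryos. A count-based test (voom) was run on the recovered reads as an alternative. Figures were drawn with matplotlib 3.10.9. Part of the list of subunits outside the name rule is not reported here.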

Additional observations from a re-analysis of the deposited data

Results flagged for a closer look

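Among the summed share and the 12 panel members, examined in the groups of 4 to 10 embryos (26 sets of values, of which chance flags about 1 in 20), 1 value stood far from its group. *Rpl5* was at 8.97 log2 RPM in embryo HET2 e, while the other 4 HET2 embryos had 5.72 to 6.63. This embryo is the only HET2 embryo of litter 2, where the 7 HOM embryos had 7.31 to 8.17 log2 RPM of *Rpl5*.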

How the results depend on the processing

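In HET1 against WT the 4 members higher and 13 lower became 2 and 8 on log2(RPM + 1), 2 and 7 with a common floor (lower values raised to the highest value of no read of any embryo), 0 higher (14 lower) when re-centred, 0 and 0 with depth as a covariate or litter as a random effect, 2 and 23 without HET1 litter 1, 0 and 0 without HET1 litter 2, 2 and 2 without WT litter 1, 2 and 7 without WT litter 2, and 2 and 9 without embryos WT j and WT k, an alternative chosen after seeing the data. *Rpl7l1* reversed to 0.27 without HET1 litter 2. The cause of these changes was not tested.

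Against WT, HET2 gained 2 members lower without litter 2 of its cross. HOM gained 5 higher with array weights and 2 without litter 1, and its median fell to -0.52 without litter 2. Between WT litters voom gave 6 higher. Between HET1 litters 1 was higher with the stricter filter, the common floor, re-centring or array weights, 6 were lower after re-centring and 42 with depth as a covariate. Between HOM litters the 4 higher became 2 without a filter, 7 with a common floor, 2 after re-centring, 1 with voom and 28 with array weights. The shares of all tested genes called under each alternative are not given here. These counts therefore do not tell a change in the members from a change in calls over all genes. Without the litter term (no replicate block) the members' median for HOM against HET2 was 1.0. Leaving out each HET2 embryo in turn gave 0 to 2 members lower against WT. The ratios of summed shares moved by less than the spread between embryos, although that of HET1 to WT went from 1.08 to 0.996 over members that share few stretches.

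The mating numbers name different animals in each cross, so they pair no embryos. Differences between matings had correlations of 0.43, -0.41 and -0.75 over genes between WT and HET1, WT and HOM, and HET1 and HOM. With the mating number as a replicate block, HET1 against WT gave 3 members higher and 12 lower, and HET2 and HOM against WT gave 0.

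The planned sum over members without a copy in the genome was run on annotated transcripts instead. Depth limits single members: 45 values had no read, and the value of no read reached 1.86 log2 RPM.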
